A study of Homo sapiens with 6 samples.

Results

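Imprinted genes are expressed mainly or only from the copy inherited from 1 parent. The choice is carried by DNA methylation that was set in the egg or sperm at CpG-rich control regions, and at some imprinted domains contacts are known to differ between the parental copies, with the insulator protein CTCF bound to the unmethylated one. The loops described here lie at 7 imprinted loci outside the 11p15 domain, named after 8 genes: DLK1 and MEG3 (a shared domain), MEST, PEG10, GRB10, PLAGL1, IGF2R and GNAS. A loop was taken as a member where at least 1 of its anchors overlapped a locus window or the 50 kb on either side of it. This gave 69 of the 46849 loops in the list (0.147%).

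The contacts were measured by Micro-C, in which micrococcal nuclease cuts fixed chromatin down to nucleosomes before neighbouring ends are ligated. The cells were wild-type HAP1, a near-haploid line derived from a chronic myeloid leukaemia, sorted for cells that had become diploid and fixed with 1% formaldehyde for 10 min and 3 mM DSG for 45 min. The 6 replicates form 1 group and enter the list together, so no spread between replicates can be given. None of the intervals below covers it: those of single counts cover counting error, and those of shares and medians treat loops as independent draws. HAP1 limits what can be read at imprinted loci. A haploid line keeps a single parental copy of most of its genome, and diploid HAP1 cells arise by doubling of that copy, so that maternal and paternal contacts cannot be compared. Which parent's copy is present at each locus is not given in the sources used here, and neither the methylation nor the expression of these genes was analysed here.

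The 7 loci differed widely in the number of loops, from none at MEST to 17 at PLAGL1. IGF2R and GNAS held 12 loops each, DLK1-MEG3 and PEG10 10 each and GRB10 8. Windows differ in length, from 120 kb with flanks at PEG10 to 320 kb at GRB10, and per Mb of window the order changed: PEG10 held 83.3 loops per Mb, PLAGL1 73.9, GNAS 66.7, IGF2R 50.0, DLK1-MEG3 41.7, GRB10 25.0 and MEST 0. Each count was then set beside consecutive windows of the same length laid along every chromosome from its first to its last loop, stretches without anchors included. At least 17 loops were found in 2.80% of windows as long as that of PLAGL1, at least 10 in 5.61% of windows for PEG10, and at least 12 in 7.34% for GNAS. The shares were 15.3% for IGF2R, 25.6% for DLK1-MEG3 and 51.0% for GRB10, whose 8 loops equal the median of its 9149 windows. For MEST, 22.2% of windows of 130 kb held 0 loops. PLAGL1, PEG10 and GNAS thus lie towards the loop-rich end of these windows, and empty windows like that of MEST are not rare among them. The shares without the stretches that lack anchors were not computed. These are descriptions of 1 map, with no test between loci.

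**Figure D1:**
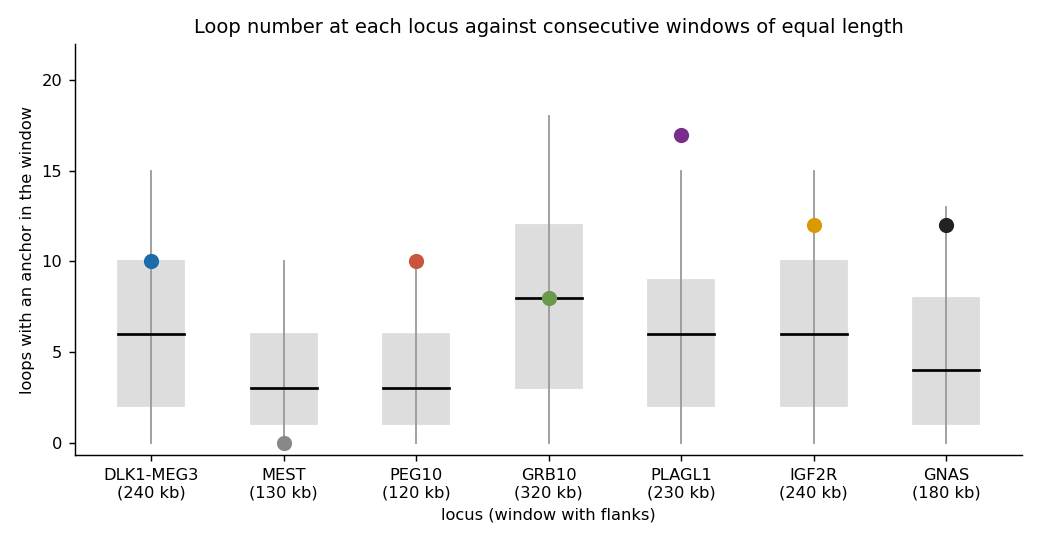
Number of loops with an anchor in each locus window including its 50 kb flanks (coloured point), beside all consecutive windows of the same length (line in the box, median; box, quartiles; vertical line, 5th to 95th percentile). PLAGL1 with 17 loops lies above the vertical line, GRB10 with 8 on its median and MEST at 0.

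Of the 69 loops, 54 had an anchor in a window itself and the others only in a flank. Just inside the limit lay, for example, the anchor at 101360001 to 101370000 on chromosome 14 (hg19, as are all loop positions here), with 6 loops of 21 to 41 observed contacts. Just outside it, at 101380001 to 101385000, a loop of 9 contacts against 2.22 expected was not counted. Observed contacts are raw counts in the pixel where the anchors cross. The 69 loops had a median of 25 (range 13 to 98), against 31 in the whole list. For a single loop of 25 contacts the exact 95% Poisson interval runs from 16.2 to 36.9, which is not an interval of the median.

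The loops had a longer median span than the list and a like median strength. The span was 255 kb (range 35 to 2350 kb), against 160 kb in the whole list. Spans of 200 kb or more made up 43 of 69 loops (62.3%, exact binomial 95% interval 49.8 to 73.7%), against 43.8% of all loops, and the 14 loops under 100 kb made up 20.3% against 36.3%. Strength is given as the ratio of observed contacts to those expected from the donut of pixels around the loop. The median ratio was 3.57 (order-statistic 95% interval 3.10 to 4.35), beside 3.55 for the list. Since strength rises with span in this list, each loop was also set against loops of the same anchor width (5 or 10 kb) and span class. On that footing 16 of 69 loops (23.2%, interval 13.9 to 34.9%) lay above the upper quartile of their class, against 25.0% of all loops by construction. Above the median of their class lay 28 (40.6%, interval 28.9 to 53.1%), against 50.0%. Both intervals hold the share of the whole list, so no departure in strength was detectable with 69 loops.

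The authors' q-values, 1 for each of the 4 surroundings against which a loop is called, give the support for each loop. All 4 were at or below 0.1 for 40 loops (58.0%, interval 45.5 to 69.8%), against 72.0% of the list, and at or below 0.01 for 27 (39.1%, interval 27.6 to 51.6%), against 54.6%. The loops share anchors and are not independent, so these intervals are too narrow. Anchors 10 kb wide were used by 17 loops (24.6%), against 15.2% of the list, and 6 loops (8.70%) rested on a single pixel, against 8.94%.

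**Figure D2:**
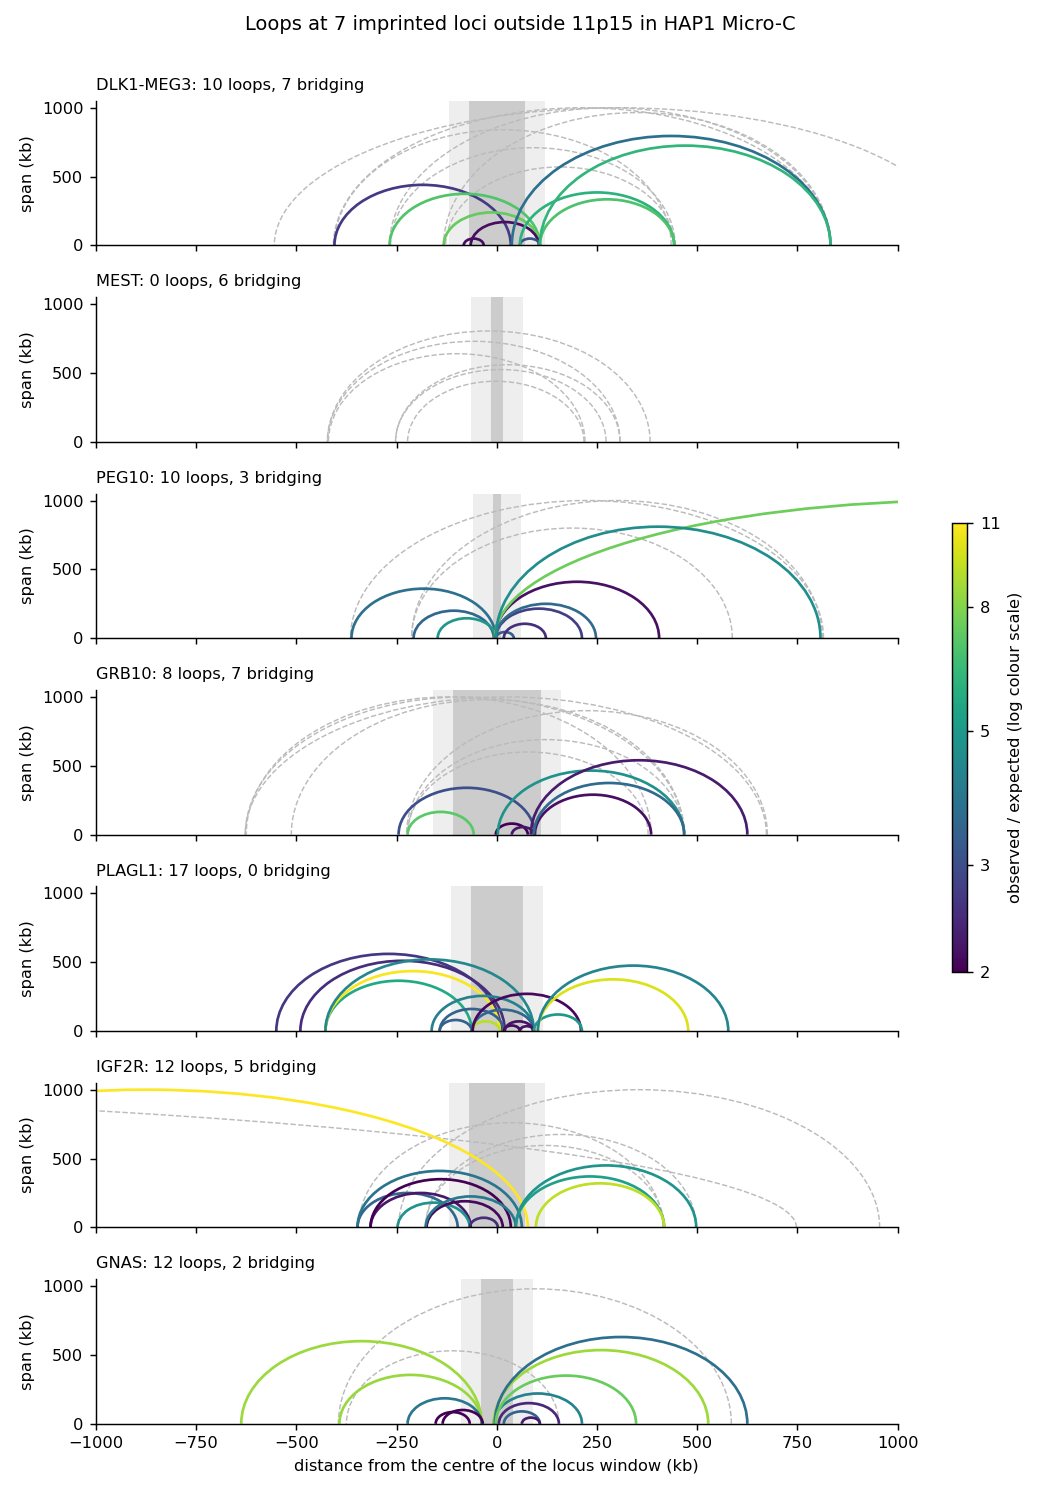
Loops at the 7 loci, drawn as arcs over the distance from the centre of each window (dark grey, window; light grey, flanks); arc height gives the span up to 1000 kb, beyond which arcs are drawn at that height. Solid arcs are the 69 member loops, coloured by observed over expected contacts (values above 11 share the last colour). Dashed arcs are loops that pass over a window and both its flanks. MEST has 6 dashed arcs and no solid one, PLAGL1 17 solid arcs and no dashed one.

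MEST encodes a hydrolase-like protein of mesodermal tissue and is expressed from the paternal copy. No loop had an anchor in its window on chromosome 7 (130120001 to 130150000) or in the flanks. The nearest anchor below the flank was 10 kb away, at 130055001 to 130060000, where a loop from 129880001 to 129885000 had 20 contacts against 7.10 expected (ratio 2.82). Above the flank the first anchor lay 150 kb away. The locus was nevertheless enclosed: 6 loops of 440 to 805 kb passed over the window and both its flanks. How often windows elsewhere are bridged in this way was not counted. The strongest of the 6 joined 129710001 to 129715000 with 130515001 to 130520000, with 52 contacts against 4.91 expected (ratio 10.6, 1.69 times the median of its class). From the same lower anchor a loop to 130440001 to 130445000 had 50 contacts (ratio 7.30). The other 4 had 19 to 43 contacts and ratios of 3.06 to 5.78. A window without a row says that no pixel there passed the caller, not that the gene made no contacts.

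PLAGL1 encodes a zinc finger protein that restrains cell growth, and is expressed with the untranslated RNA HYMAI from the paternal copy. It is shown beside MEST because they are the loci with the most and the fewest loops, and both genes have a promoter at a known imprinted control region. The promoters are those of RefSeq on GRCh38.p14, 250 bases before to 50 after a start site, with CpG in capitals as the bases that carry methylation. They were matched by gene symbol and their positions must not be read against the hg19 loops. The entry of MEST with the most CpG (chr7:130491835-130492134, plus strand) and the entry that PLAGL1 and HYMAI share (chr6:144008210-144008509, minus strand) read, 5′ to 3′:
MEST: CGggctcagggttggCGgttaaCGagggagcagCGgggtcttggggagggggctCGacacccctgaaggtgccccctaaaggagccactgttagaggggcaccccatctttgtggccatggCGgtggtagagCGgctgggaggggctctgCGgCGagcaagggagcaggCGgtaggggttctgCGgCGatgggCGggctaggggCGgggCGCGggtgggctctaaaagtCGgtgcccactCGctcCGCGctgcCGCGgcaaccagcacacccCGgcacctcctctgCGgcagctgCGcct
PLAGL1 and HYMAI: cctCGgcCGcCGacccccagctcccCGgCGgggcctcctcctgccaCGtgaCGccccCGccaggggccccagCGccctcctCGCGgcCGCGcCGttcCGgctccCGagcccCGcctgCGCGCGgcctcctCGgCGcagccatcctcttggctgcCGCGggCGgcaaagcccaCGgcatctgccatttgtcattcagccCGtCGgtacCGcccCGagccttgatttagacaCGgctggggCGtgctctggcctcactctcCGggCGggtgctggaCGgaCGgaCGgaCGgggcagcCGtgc
The MEST promoter held 25 CpG and the PLAGL1 promoter 39, beside a median of 14 over 34796 distinct promoters of the same length. At least 25 were found in 32.0% of all promoters and at least 39 in 8.73%. CpG number differed within a gene too, from 13 to 25 over the 5 entries of MEST and from 2 to 39 over the 5 of PLAGL1.

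Of the 7 loci PLAGL1 had the most loops, and they formed a mesh. Its window on chromosome 6 (144260001 to 144390000) with flanks held 6 merged anchors, each with at least 2 loops. Of the 17 loops, 5 had both anchors inside, 8 ran to lower and 4 to higher coordinates. No loop passed over the window and both its flanks, whereas each of the other 6 loci was bridged in that sense by 2 to 7. The window without its flanks was passed over by member loops from 144415001 to 144420000, in the upper flank. They reached 143895001 to 143900000 with 19 contacts and 144160001 to 144165000 with 17. The highest count belonged to a 70 kb loop between 144260001 to 144265000 and 144330001 to 144335000, with 98 contacts (Poisson interval 79.6 to 119) against 10.7 expected. Its ratio of 9.18 was 3.46 times the median for its class. It rested on 14 merged pixels, and its largest q-value was 2.96e-40. From 144330001 to 144335000 a second loop reached 143895001 to 143900000, 435 kb away, with 57 contacts against 5.27 expected (ratio 10.8, the highest at the locus).

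These 3 places were joined pairwise: 143895001 to 143900000 also met 144260001 to 144265000, with 31 contacts (ratio 5.61). In all, 4 such closed triangles included a loop of the locus. How common such triangles are over the whole list was not counted. The most compact of the 4 lay at 144340001 to 144350000, 144380001 to 144385000 and 144410001 to 144420000, with 37, 54 and 78 contacts but ratios of only 2.07 to 2.17. The 78 were counted in a 10 kb pixel and the others in 5 kb pixels. The loop of 37 contacts had a largest q-value of 0.195. The anchor at 144410001 to 144420000 held the most loops, 6, of which 5 ran to lower coordinates. At least 6 loops were held by 3.31% of merged anchors in the list. A few kb on, 144425001 to 144430000 sent its 2 loops only to higher coordinates. They reached 144800001 to 144805000 with 41 contacts (ratio 10.0) and 144900001 to 144905000 with 15 (ratio 4.35, largest q-value 0.253). The longest loop of the locus, from 143770001 to 143780000 to 144330001 to 144340000 (560 kb), had 23 contacts, a ratio of 2.64 and a largest q-value of 0.380. In all, 4 of 17 loops (23.5%, exact binomial interval 6.81 to 49.9%) lay above the upper quartile of their class, close to the 25.0% of the list. Above the median of their class lay 6, beside 50.0% of the list.

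PEG10, a gene derived from a retrotransposon and needed in the placenta, is expressed from the paternal copy and starts next to SGCE, which is read from the other strand. Nearly all of its loops met at a single place. The anchor at 94280001 to 94290000 on chromosome 7, inside the window of 94280001 to 94300000, held 9 of the 10 loops, and 0.371% of merged anchors in the list held 9 or more. It was named because it held the most loops, so its rank is a description. To lower coordinates it reached 145 kb with 68 contacts, 200 kb with 21 and 360 kb with 13. To higher coordinates it reached 45 kb with 76 contacts, 215 kb with 33, 250 kb with 53, 410 kb with 53, 810 kb with 22 and 2350 kb with 15. Counts fell with distance on both sides, apart from the 53 contacts at 250 and at 410 kb, the latter counted in the larger pixel of a 10 kb loop. The 15 contacts at 2350 kb were counted in a 10 kb pixel too.

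The ratios at PEG10 ran from 2.14 to 7.50. The 145 kb loop to 94140001 to 94145000 had a ratio of 4.98, with 68 contacts against 13.7 expected, and the 45 kb loop to 94330001 to 94335000 one of 3.32, with 76 against 22.9. Over the 10 loops the median of the ratios relative to their class medians was 0.730, and 3 lay above their class median, beside 50.0% of the list. Above the upper quartile of its class lay 1 (10.0%, exact binomial interval 0.253 to 44.5%), and the interval holds the 25.0% of the list. That loop was the longest, to 96630001 to 96640000, with a ratio of 7.50 from 15 contacts in a single pixel. The only loop of the locus without the hub joined 94305001 to 94310000 with 94410001 to 94415000 (16 contacts, ratio 2.50, largest q-value 0.420).

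**Figure D3:**
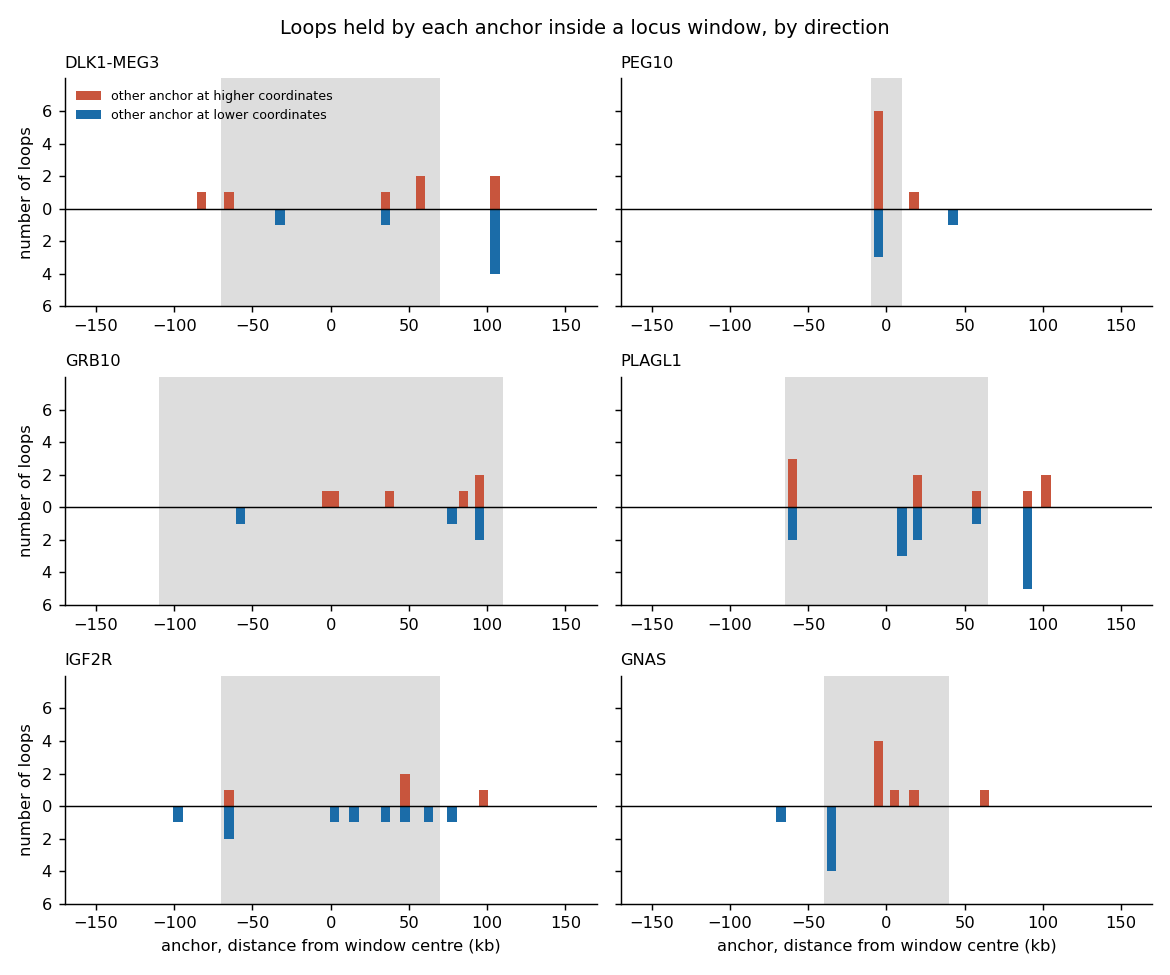
Number of loops held by each merged anchor inside a window or its flanks, by distance from the window centre (kb); bars upward count loops whose other anchor lies at higher coordinates, bars downward those at lower coordinates, and grey marks the window. PEG10 has 9 loops at a single anchor, and at GNAS the downward and upward bars lie on separate anchors.

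DLK1 and MEG3 share a domain on chromosome 14. DLK1, a membrane protein of the Notch ligand family that holds back differentiation, is expressed from the paternal copy and the long RNA MEG3 from the maternal one. The first promoter entry of MEG3 (chr14:100825858-100826157, plus strand, GRCh38.p14), shown because its CpG lie in a region that is methylated on the paternal copy, held 19 CpG, the most of its 3 entries:
MEG3: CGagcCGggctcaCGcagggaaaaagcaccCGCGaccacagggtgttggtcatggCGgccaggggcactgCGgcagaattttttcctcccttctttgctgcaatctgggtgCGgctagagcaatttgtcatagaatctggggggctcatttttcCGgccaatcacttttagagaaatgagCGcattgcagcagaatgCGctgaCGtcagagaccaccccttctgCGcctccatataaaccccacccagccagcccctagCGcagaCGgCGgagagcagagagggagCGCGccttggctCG
Most loops of the domain ended at its upper side. The anchor at 101360001 to 101370000, in the flank above the window of 101190001 to 101330000, held 6 of the 10 loops, 4 to lower and 2 to higher coordinates. Without the flanks the domain had 6 loops in all, and with flanks of 100 kb 16. To lower coordinates it met 101315001 to 101320000 with 34 contacts (ratio 3.10), 101190001 to 101200000 with 41 (ratio 2.12), 101125001 to 101130000 with 41 and 100990001 to 100995000 with 24. The last pair had the highest ratios of the locus, 7.34 (41 contacts against 5.58 expected, interval of the count 29.4 to 55.6) and 6.87. To higher coordinates it met 101700001 to 101705000 with 21 contacts (ratio 6.81) and 102090001 to 102095000 with 24 (ratio 6.10).

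Distant partners of this anchor were also joined to each other, over the domain. Among the 7 loops that bridged the window and both its flanks, 102090001 to 102095000 met 100990001 to 100995000 with 20 contacts (ratio 5.36) and 101125001 to 101130000 with 21 (ratio 5.86). There were 5 closed triangles with a loop of the domain, and 4 of them included the anchor at 101360001 to 101370000. The longest member, from 101295001 to 101300000 to 102090001 to 102095000 (795 kb), had 14 contacts and a ratio of 3.73, and the 50 kb loop from 101175001 to 101180000 to 101225001 to 101230000 had 18 and 2.11. The largest q-values of these loops were 0.426 and 0.503. Above the median of their class lay 6 of the 10 loops, beside 50.0% of the list. Above the upper quartile lay 1 (10.0%, exact binomial interval 0.253 to 44.5%, which holds the 25.0% of the list).

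GRB10 encodes an adaptor that dampens insulin and growth factor receptor signalling, and which copy is expressed depends on the tissue. Its window on chromosome 7 (50650001 to 50870000) is the longest of the 7 and held the fewest loops after MEST. The 8 loops used 7 anchors, and 1 of these, at 50850001 to 50860000, held more than 1 loop. This anchor held 4, with 14 to 41 contacts and ratios of 2.13 to 3.57. The highest ratio, 7.09, belonged to a 165 kb loop from 50535001 to 50540000 into the window at 50700001 to 50705000, with 24 contacts against 3.38 expected in a single pixel. Next came 4.75 for a 465 kb loop from 50760001 to 50765000 to 51225001 to 51230000 (16 contacts). The loop with the most contacts, 41, ran from 50850001 to 50860000 to 51140001 to 51150000 with a ratio of 2.13. The longest (540 kb) had 19 contacts, a ratio of 2.26 and a largest q-value of 0.568.

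No closed triangle included a loop of GRB10. All 4 q-values were at or below 0.01 for 1 of its 8 loops, beside 54.6% of the list. The 7 loops that bridged the locus had a median ratio of 7.66, against 2.63 for the members, but they were also longer (600 to 1300 kb). The highest ratio among them, 17.4 (2.06 times its class median), belonged to the loop from 50130001 to 50135000 to 51225001 to 51230000, with 29 contacts against 1.66 expected. The most contacts, 47 against 3.94 expected (ratio 11.9, 1.90 times its class median), joined 50535001 to 50540000 with 51225001 to 51230000. Both anchors of the latter loop also sent loops into the window, those of 7.09, 4.75 and 3.57. The difference between bridging and member loops was not tested.

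IGF2R encodes the receptor that takes up IGF2 and clears it by way of lysosomes. It is imprinted in mice, where the antisense RNA AIRN silences the paternal copy, and in most human tissues it is expressed from both copies. Its 12 loops spread over 9 anchors in and beside the window on chromosome 6 (160390001 to 160530000), and 8 of them ran to lower coordinates. None of these anchors held more than 3 loops. The clearest loop left the upper flank, from 160555001 to 160560000 to 160875001 to 160880000, with 67 contacts (interval 51.9 to 85.1) against 7.22 expected, a ratio of 9.28 that was 1.80 times its class median. The anchor at 160505001 to 160510000 met the same partner with 27 contacts (ratio 5.24) and 160955001 to 160960000 with 14 (ratio 4.83).

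The loop with the highest ratio of all 69, at 102, rests on few contacts. It joined 158630001 to 158635000 with 160535001 to 160540000 over 1905 kb, and its 13 contacts in a single pixel stood against 0.128 expected. The count has an interval of 6.92 to 22.2. With the expectation held fixed this gives ratios of 54.1 to 174, beside a class median of 8.48. The small expectation sets the size of the ratio. Without that loop the ratios at IGF2R ran from 1.93 to 9.28. Towards lower coordinates, 160140001 to 160150000 met the window in 2 places, with 42 contacts (ratio 2.23) and 29 (ratio 1.93, the lowest of the 69). The largest q-values of these loops were 0.731 and 0.760. In all 4 of 12 loops lay above their class median, beside 50.0% of the list, and no difference from that share was tested. The window and both its flanks were passed over by 5 loops. Of these, 4 were of 595 to 1200 kb with 12 to 22 contacts. The longest, of 7460 kb, had 141 contacts against 0.403 expected, a ratio of 350 that was 41.2 times its class median. The loop of ratio 102 also passed over the window, with its upper anchor in the flank.

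GNAS encodes the stimulatory G protein subunit of hormone receptors, and alternative first exons give transcripts from the maternal copy, from the paternal copy or, in most tissues, from both. At GNAS the loops parted by direction. All 5 loops to lower coordinates left from anchors between 57380001 and 57420000 on chromosome 20, and all 7 loops to higher coordinates from anchors between 57440001 and 57515000. The sets were 20 kb apart and no loop had both anchors inside. At the other 5 loci with loops, the stretches that held the anchors of either direction overlapped. Only 2 loops, with 13 and 24 contacts, bridged the GNAS window of 57410001 to 57490000. Whether such a split is more frequent here than elsewhere was not tested.

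Each side had a leading anchor with 4 loops. From 57410001 to 57420000 loops ran down to 57055001 to 57060000 with 49 contacts against 5.79 expected (ratio 8.47) and to 56810001 to 56815000 with 35 against 4.11 (ratio 8.52). Its others were of 24 and 46 contacts (ratios 3.97 and 2.00), the 46 in a 10 kb pixel with a largest q-value of 0.264. From 57440001 to 57450000 loops ran up to 57975001 to 57980000 with 27 contacts against 3.15 (ratio 8.56), to 57795001 to 57800000 with 26 (ratio 7.41) and to 57660001 to 57665000 with 18 (ratio 4.29). The longest (630 kb), to 58070001 to 58080000, had 32 contacts in a 10 kb pixel and a ratio of 3.70. It lay just above the upper quartile of its class, 3.69, and its largest q-value was 0.311. That of the loop of 18 contacts was 0.149. The most contacts, 72, were counted in the 10 kb pixel of 57450001 to 57460000 and 57600001 to 57610000, but 29.7 were expected there (ratio 2.42). Of the 12 loops, 6 lay above the upper quartile of their class (50.0%, exact binomial interval 21.1 to 78.9%), the highest share of the 6 loci with loops. The interval holds the 25.0% of the list.

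The promoter entries of GNAS, 6 in all, held 10 to 43 CpG. The entry with the most (chr20:58888930-58889229, plus strand, GRCh38.p14) is shown as the most CpG-rich of these 6, which may not cover every promoter of the locus:
GNAS: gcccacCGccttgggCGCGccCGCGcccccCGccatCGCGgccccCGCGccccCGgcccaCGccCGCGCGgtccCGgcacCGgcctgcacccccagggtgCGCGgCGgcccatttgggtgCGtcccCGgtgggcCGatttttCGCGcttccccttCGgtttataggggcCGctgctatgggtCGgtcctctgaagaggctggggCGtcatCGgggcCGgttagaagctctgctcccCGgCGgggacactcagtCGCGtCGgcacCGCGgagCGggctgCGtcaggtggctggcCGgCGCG
At least 43 CpG were found in 4.99% of all promoters. Over the 8 genes, 6 had promoter entries, 25 in all, with 2 to 49 CpG (median 19). Which promoter lies in which anchor was not analysed here.

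**Figure D4:**
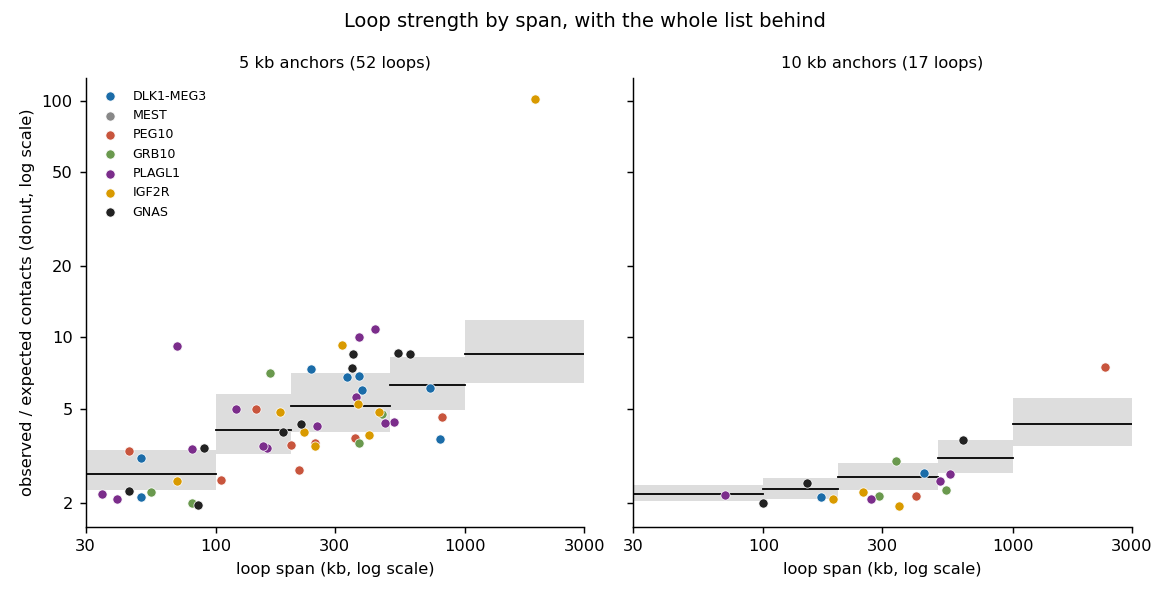
Ratio of observed to expected contacts against span for the 69 loops, on log axes, for 5 kb anchors (52 loops) and 10 kb anchors (17 loops); black lines and grey boxes give the median and quartiles of all loops of the list in 5 span classes. Of the points, 16 lie above the boxes, against 25.0% of all loops; the IGF2R loop at 102 and the PLAGL1 loop at 70 kb with 9.18 stand above them.

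Sharing of anchors was common at these loci, as in the list. Of the 69 loops, 65 (94.2%, exact binomial 95% interval 85.8 to 98.4%) shared an anchor with another loop, against 89.7% of all loops. Of the 37 merged anchors of the windows, 15 held at least 2 loops, beside 45.9% of merged anchors in the whole list. Such anchors were all 6 of PLAGL1, 3 of 6 at DLK1-MEG3, 2 of 6 at GNAS, 2 of 9 at IGF2R, 1 of 3 at PEG10 and 1 of 7 at GRB10. Closed triangles numbered 5 at DLK1-MEG3, 4 each at PLAGL1, IGF2R and GNAS, 1 at PEG10 and 0 at GRB10. Neither triangles nor bridging loops were counted over the whole list, so whether their numbers here are unusual cannot be said. Median ratios ran from 2.63 at GRB10 (interval 2.00 to 7.09) to 4.86 at DLK1-MEG3 (interval 2.12 to 6.87). The intervals of all 6 loci overlapped, and that of GRB10 is the full range of its ratios. Overlap is not a test of a difference, and none between loci was made. The order of the loci changed when each ratio was divided by the median of its span class and anchor width: PEG10 was then lowest at 0.730, GRB10 had 0.832, DLK1-MEG3 1.10 and GNAS the highest value, 1.13.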

How the data were processed

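Micro-C libraries of 6 replicates in 1 group gave a single loop list, which was the only file used. The submitters' processing notes name BWA and hg19, and the file header names juicer_tools 1.22.01. Pooling, depth and caller settings: not given in the sources used here. For each loop, the authors deposited whole observed contact counts. The authors also deposited 4 expected contacts per loop, on the scale of the counts, and the deposited q-values of their caller. Positions are printed 1-based.

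Loci, genes and lists were chosen with earlier results of these data known. Named loops are, per locus, those with the 2 highest ratios, the highest count and the longest span, and the anchor with most loops; loops that bridge a window or share an anchor with these, and the promoters shown, were added after their values were seen. Span classes were bounded at 100, 200, 500 and 1000 kb, and anchors overlapping by 1 bp were merged. Intervals are exact Poisson for counts, exact binomial (Clopper-Pearson) for shares and order-statistic for medians, at 95%. The Poisson intervals cover counting error only, and the others treat loops as independent draws. With replicates not told apart, no test between samples was made. Promoter sequences are from RefSeq (24 of 32 listed genes matched). Scripts ran in Python 3.11.15 (scipy 1.17.1, numpy 2.4.6, pandas 2.3.3; figures with matplotlib 3.10.9), and the functions were tested on simulated data. Alternatives were other flanks, anchor widths, expectations, q-value limits and span classes.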

Additional observations from a re-analysis of the deposited data

How the results depend on the processing

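Of 46 alternative values, 31 stayed within 1.5 times the count or inside the interval reported. With all 4 q-values limited to 0.01, 27 of the 69 loops remained (39.1%, against 54.6% of the list), with a median ratio of 6.10. Of these, 8 were at PLAGL1, 5 each at DLK1-MEG3 and GNAS, 4 each at PEG10 and IGF2R, 1 at GRB10 and 0 at MEST. With both anchors required in the window, 12 loops were left. DLK1-MEG3 depended on the flank, with 6 loops without it and 16 with 100 kb. A flank of 100 kb also brought MEST 1 loop. With 5 kb anchors only, GRB10 had 5 loops. Against the largest of the 4 expectations the median ratio was 2.70. Neither this value nor the 6.10 has a counterpart computed for the list. They are not to be set beside the list's 3.55, the median donut ratio of all its loops. With anchors within 10 kb counted as the same, 100% of the 69 loops shared an anchor, against 96.8% of the list. No paired analysis was possible because all replicates belong to 1 group and the list does not tell them apart, and for the same reason no replicate could be left out. Counts of 13 to 98 contacts limit the precision of any single loop.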
